A study of Mus musculus with 4 samples.

Results

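Sites where JunB and BATF peaks coincided without an IRF4 peak were described in ChIP-seq of regulatory T (Treg) cells. In ChIP-seq, an antibody to a protein pulls down the DNA it sits on, the DNA is sequenced, and places with an excess of reads are called peaks. The members were chosen by overlap of peak lists: a JunB peak that shared at least 1 bp with a BATF peak and none with an IRF4 peak, all in Junb-sufficient cells. This gave 850 of 29659 JunB peaks, 2.87% (exact binomial 95% interval 2.68 to 3.06%). The other JunB peaks were 8921 with both BATF and IRF4 peaks, 3777 with an IRF4 peak only, and 16111 with neither.

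The data comprised 4 libraries of CD4+CD25+ Treg cells from spleens of C57BL/6 mice, activated for 60 h with antibodies to CD3 and CD28 and with IL-2. Junb-sufficient cells gave 1 library each for JunB, BATF, and IRF4, and Junb-deficient cells gave 1 library for IRF4. The sample labels give the genotypes as Foxp3cre JUNB+/+ and Foxp3cre JUNBFl/Fl, which would delete Junb under the control of the Treg-specific Foxp3 gene, whereas the study's text gives Junb fl/fl and Cd4Cre Junb fl/fl, which would delete it in T cells in general. The antibody field of the labels names IRF4 for the library titled BATF and the reverse, and titles were used here. The sample labels give no age, and peak lists hold no expression values, so neither the loss of Junb nor Treg markers were checked. The recorded depth was 21127029 to 27399986 tags (aligned reads) per library. With 1 library per condition no difference between genotypes could be tested, so intervals and p-values below are over peaks, cover counting error only, and treat neighbouring peaks as independent.

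JunB and BATF are basic leucine zipper proteins of the AP-1 family, which bind DNA as dimers, and a JunB-BATF dimer recognises the AP-1 element. IRF4 binds weakly on its own to interferon-type elements and is recruited by AP-1 dimers to composite elements (AICEs), in which an interferon-type part lies beside or near an AP-1 element. These proteins are known for their part in the differentiation of effector Treg cells, which express genes such as Icos, Ctla4, and Prdm1.

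The sequences of 8 members are shown as examples of the elements and genes described below. They are not a random sample of the members. IRF4 peaks in Junb-deficient cells are called Junb-deficient IRF4 peaks, and the Cd47, N4bp1, and Ctla4 upstream members had none. Each is the whole JunB peak, read 5′ to 3′ on the plus strand of mm9, with matches to the AP-1 element (TGACTCA or TGAGTCA), to an AICE, or to the interferon-stimulated response element (ISRE, GAAANNGAAA) on either strand in capitals.
Prdm1 member, chr10:44139751-44139901: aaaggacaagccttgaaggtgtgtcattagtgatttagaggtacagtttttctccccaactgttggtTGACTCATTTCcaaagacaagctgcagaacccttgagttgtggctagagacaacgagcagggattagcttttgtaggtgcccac
Cd47 member, chr16:49794980-49795130: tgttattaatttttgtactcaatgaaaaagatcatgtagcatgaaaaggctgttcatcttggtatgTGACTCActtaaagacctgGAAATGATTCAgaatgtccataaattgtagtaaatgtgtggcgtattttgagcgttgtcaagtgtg
Ap1s3 member, chr1:79639709-79639859: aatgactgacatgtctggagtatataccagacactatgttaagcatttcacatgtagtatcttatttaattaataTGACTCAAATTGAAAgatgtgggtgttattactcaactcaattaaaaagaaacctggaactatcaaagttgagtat
N4bp1 member, chr8:89376494-89376644: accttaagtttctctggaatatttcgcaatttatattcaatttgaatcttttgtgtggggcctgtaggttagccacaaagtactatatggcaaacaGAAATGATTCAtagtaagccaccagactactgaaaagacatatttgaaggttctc
Mfsd2a member, chr4:122609942-122610092: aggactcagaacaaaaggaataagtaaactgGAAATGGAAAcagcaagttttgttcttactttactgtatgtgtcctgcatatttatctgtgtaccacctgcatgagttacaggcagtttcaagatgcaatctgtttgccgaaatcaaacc
Jarid2 member, chr13:44416792-44416942: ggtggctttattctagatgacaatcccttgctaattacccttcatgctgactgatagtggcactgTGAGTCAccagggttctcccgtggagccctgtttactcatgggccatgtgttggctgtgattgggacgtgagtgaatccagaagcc
Ctla4 upstream member, chr1:60932804-60932954: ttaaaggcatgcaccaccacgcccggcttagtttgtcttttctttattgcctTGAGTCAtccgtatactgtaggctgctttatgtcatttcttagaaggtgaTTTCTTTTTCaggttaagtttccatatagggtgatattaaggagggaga
Ctla4 promoter member, chr1:60943570-60943720: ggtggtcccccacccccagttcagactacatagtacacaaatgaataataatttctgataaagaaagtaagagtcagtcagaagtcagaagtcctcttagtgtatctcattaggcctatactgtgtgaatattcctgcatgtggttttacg

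The Prdm1, Cd47, Ap1s3, and N4bp1 members each hold an AICE, the Mfsd2a member holds an ISRE, the Jarid2 member holds an AP-1 element, and the Ctla4 upstream member holds both an AP-1 element and an ISRE. No capital letter stands in the Ctla4 promoter member, although it had a Junb-deficient IRF4 peak.

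The members were a small share of the sites shared by JunB and BATF. Of the 9771 JunB peaks with a BATF peak, 7307 (74.8%) had an IRF4 peak in both genotypes, 1614 (16.5%) in Junb-sufficient cells only, 224 (2.29%) in Junb-deficient cells only, and 626 (6.41%) in neither genotype. The last 2 groups make up the 850 members. The groups count only IRF4 peaks that overlap the JunB peak. In 59 of the 224 members the Junb-deficient IRF4 peak also touched the nearest Junb-sufficient IRF4 peak, beside the member. Where at least 75 bp of overlap was needed the members numbered 880, with centres within 100 bp 1060, and with JunB peaks widened to the width of the BATF peaks 761. They lay on 844 BATF peaks, of which 6 carried at least 2 members and 42 also carried a JunB peak with IRF4, so that some members share a BATF peak. The members lay on 20 chromosomes, with 51 (6%) within 10 kb of another and between 1.77% (X) and 3.79% (chromosome 13) of the JunB peaks on each chromosome. The densest stretch of 300 kb, on chromosome 5 from position 14900204 to 15186728, held 10 members among 79 JunB peaks, 2 of which were sites of all 3 factors. Of these 10 members, 3 had a Junb-deficient IRF4 peak and 0 had an AP-1 element. There, 8 members lay within 100 kb of the TSSs of Gm10354, the highest number for a protein-coding gene.

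The lists give each peak the same score of 1, and the place of a peak in its list was therefore used in place of its strength. That the order follows strength is an assumption, since the file headers do not name the order. The members stood in the middle of the JunB list, with a median place of 11253 (37.9% of the way down the list), between the sites of all 3 factors (20.5%) and the JunB peaks with neither (63.6%). Of the members, 532 (62.6%) stood in the first 50% of the JunB list. As a share of the JunB peaks with BATF, the members made up 3.46% in the first 10% of the list and 19.0% in the last 10%. In number, 91 members stood in the first 10%. In the BATF list the median place was 7461 (55.0%), against 4751 (35.0%) for the sites of all 3 factors. The rule used the presence of IRF4, and these places are given as a description with no test.

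**Figure D1:**
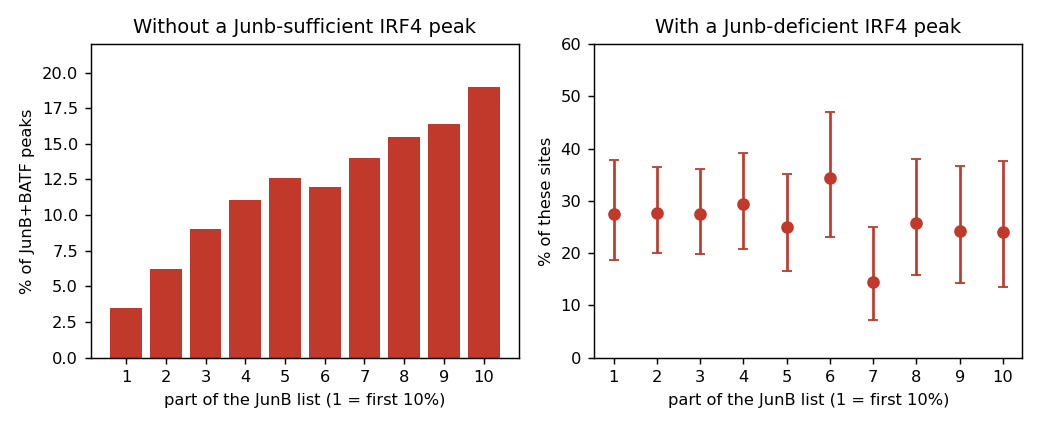
The left panel plots, for each of 10 equal parts of the JunB list, the percentage of JunB peaks with a BATF peak that lacked a Junb-sufficient IRF4 peak, and the right panel the percentage of those sites with a Junb-deficient IRF4 peak, with exact 95% intervals. The left share rose from 3.46% to 19.0% along the list, and the right share lay between 14.5% and 34.3%, with intervals that overlap.

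With the full lists and the titles' antibodies, most members lay within 10 kb of an IRF4 peak that they did not touch. The distance from the centre of the member to the centre of the nearest Junb-sufficient IRF4 peak was 382 bp at the least, 3842 bp at the median, and 10752 bp at the upper quartile. Such a peak lay within 10 kb of 627 members (73.8%, 70.7 to 76.7%), against 38.7% of the JunB peaks with neither BATF nor IRF4 (odds ratio 4.45, 3.80 to 5.22). Over all JunB peaks without a Junb-sufficient IRF4 peak the share was 40.5%. A Junb-sufficient IRF4 centre lay within 2 kb of 322 members (37.9% against 14.6% of JunB peaks with neither) and within 50 kb of 794 (93.4% against 61.2%). With only the first 50% of the IRF4 list kept, the share within 10 kb was 39.8% (odds ratio 1.65, 1.48 to 1.83), and with the antibodies exchanged as in the antibody field it was 31.6% (odds ratio 1.26, 1.17 to 1.36). The distances come from the same IRF4 list that the rule used, but from peaks beside the members. The odds ratios therefore describe these lists, and no p-value is given. In 206 members the BATF peak itself touched a Junb-sufficient IRF4 peak, so these lay within 10 kb by construction. Where the BATF peak had to be clear of IRF4, the share within 10 kb was 65.4% (odds ratio 2.99).

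By their IRF4 neighbours the members fell into 3 kinds. In 206 members (24.2%) the wider BATF peak itself touched a Junb-sufficient IRF4 peak that the narrower JunB peak missed. In 421 (49.5%) the BATF peak was clear but an IRF4 centre lay within 10 kb, and in 223 (26.2%) none lay within 10 kb. Of the first kind, 118 (57.3%) had another JunB peak within 1 kb that did overlap the IRF4 peak. The peak caller was set to keep peaks of the Junb-sufficient IRF4 list 1224 bp apart, and the closest pair of centres in that list lay 1079 bp apart. Within 1224 bp of an IRF4 centre lay 255 members (30.0%). How many of them this setting made members was not tested.

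The contents of the 3 kinds were compared without a test. A Junb-deficient IRF4 peak overlapped 27.7%, 24.9%, and 27.8% of them, an AP-1 element lay in 29.1%, 32.8%, and 25.6%, and an AICE in 5.34%, 4.51%, and 2.24% (11, 19, and 5 members). Their BATF peaks stood lower in the BATF list from kind to kind, at median places 5024, 6969, and 9755. The centres of JunB and BATF peaks lay 32 bp apart at the median over all members, against 24 bp for the sites of all 3 factors, and within 100 bp in 79.6% against 90.8%. In the 3 kinds that median was 41, 24, and 37 bp.

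IRF4 was listed at 224 of the 850 members in Junb-deficient cells (26.4%, 23.4 to 29.5%), a library that the rule did not use. The share over all JunB peaks was 34.9%, and over all JunB peaks without a Junb-sufficient IRF4 peak it was 5.57%. It was 4.47% (720 of 16111) at JunB peaks with neither BATF nor IRF4, so that the members carried a Junb-deficient IRF4 peak more often (odds ratio 7.65, 6.42 to 9.09, p = 2.372e-94, two-sided Fisher's exact test). The odds ratio was 6.12 (5.10 to 7.35) within 20 strata of the place in the JunB list, and 4.45 (3.73 to 5.31) within 7 strata of the distance to the nearest Junb-sufficient IRF4 peak. For comparison, 81.9% of the sites of all 3 factors and 55.8% of the sites of JunB and IRF4 had such a peak, which is given with no test, since the rule fixed their Junb-sufficient IRF4 state. With the antibodies exchanged, the sites chosen by the rule would be those of JunB and IRF4 without BATF, with an odds ratio of 27.0 (24.4 to 29.8) against JunB peaks with neither.

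The 95% intervals of the share of members with a Junb-deficient IRF4 peak overlapped between all 7 bins of distance. It was 30.3% in the 152 members under 500 bp from a Junb-sufficient IRF4 centre, 31.7% in the 167 members 10 to 50 kb away, and 16.1% (7.62 to 28.3%) in the 56 members over 50 kb away. At JunB peaks with neither, it fell from 14.7% under 500 bp to 0.591% over 50 kb. Along the JunB list it was 27.5% in the first 10% and 24.1% in the last 10%.

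**Figure D2:**
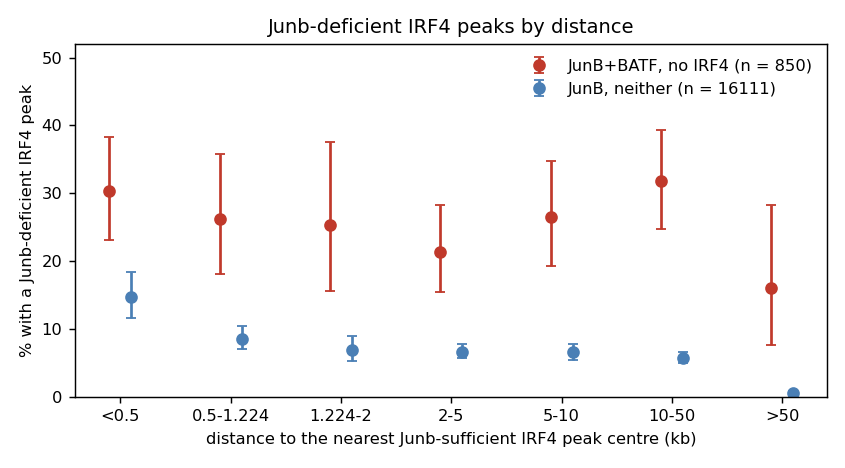
The percentage of JunB peaks with a Junb-deficient IRF4 peak (y axis) is plotted by distance to the nearest Junb-sufficient IRF4 centre in kb (x axis), for the 850 members (red) and the 16111 JunB peaks with neither BATF nor IRF4 (blue), with exact 95% intervals. The members lie above the other peaks in each of the 7 bins, at 16.1% against 0.591% in the farthest.

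These Junb-deficient IRF4 peaks were mostly centred on the member. The centres lay within 100 bp of each other in 186 of the 224 (83.0%). Where no Junb-sufficient IRF4 centre lay within 10 kb this held in 58 of 62 (93.5%), and where the BATF peak touched a Junb-sufficient IRF4 peak in 32 of 57 (56.1%). In all 57 of the latter the Junb-deficient peak also touched the neighbouring Junb-sufficient IRF4 peak, so that the lists of the 2 genotypes hold overlapping IRF4 peaks with different centres. They stood early in their list there, at a median place of 3717 (12.8% of 29033), against 8258 (28.4%) and 15858 (54.6%) in the other 2 kinds. Over all 224 the median place was 9101 (31.4%), against 5368 (18.5%) for the sites of all 3 factors. Without a Junb-deficient IRF4 peak were 626 members, and 443 of them (70.8%) had a Junb-deficient IRF4 centre within 10 kb. No IRF4 centre of either genotype lay within 10 kb of 119 members (14%). These shares were not computed over all JunB peaks, so they are given as a description.

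AP-1 elements were less frequent in the members than in the sites of all 3 factors and more frequent than in JunB peaks with neither. Motifs were exact matches on either strand within 100 bp of the JunB centre, an AICE being a GAAA or TTTC beside or 4 bp from an AP-1 core, so that an AICE may also count as an AP-1 element. An AP-1 element lay in 255 members (30.0%, 26.9 to 33.2%), in 42.0% of the sites of all 3 factors (odds ratio 0.591, 0.506 to 0.690, adjusted exact p = 3.39e-11), in 12.4% of JunB peaks with neither (odds ratio 3.02, 2.57 to 3.52, adjusted p = 4.10e-38), and in 24.5% of all JunB peaks. Tests of motifs were two-sided Fisher's exact tests, adjusted over 18 comparisons by the Benjamini-Hochberg method. Where present, the AP-1 element lay at a median of 22 bp from the centre of the member and within 25 bp in 140 of 255 (54.9%), against 20 bp and 58.7% in the sites of all 3 factors. At least 2 AP-1 elements lay in 22 members, such as one on chromosome 11 at place 529 of the JunB list.

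AICEs followed the same order. They lay in 35 members (4.12%, 2.89 to 5.68%), in 6.58% of the sites of all 3 factors (odds ratio 0.610, 0.417 to 0.865, adjusted exact p = 0.00907), in 1.48% of JunB peaks with neither (odds ratio 2.85, 1.93 to 4.11, adjusted p = 1.27e-06), and in 3.24% of all JunB peaks. The sites of JunB and IRF4 without BATF, which lack the other partner, had an AICE in 2.67% and an AP-1 element in 33.4%.

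Of the other elements, the ISRE, the binding element of IRF proteins, lay in 6.24% of the members, 9.18% of the sites of all 3 factors (adjusted exact p = 0.00788), and 4.38% of JunB peaks with neither (adjusted p = 0.0243). The element of RUNX proteins (TGTGGTT), T-cell transcription factors, lay in 9.29%, 11.9% (adjusted exact p = 0.0412), and 6.43% (adjusted p = 0.00516). The CRE (TGACGTCA), an element of ATF and CREB proteins, lay in 6 members (0.706%), against 0.437% (adjusted exact p = 0.361) and 0.161% (adjusted p = 0.00921). Over all JunB peaks the shares were 6.37% for the ISRE, 8.80% for RUNX, and 0.317% for the CRE. For the ISRE and RUNX the members thus lay near the share over all JunB peaks. Differences in the ETS element (CCGGAAGT), the GC box (GGGCGG), and the CTCF element (CC, C, AGG, and GG, with 1 free base between each) did not pass the threshold, with 2, 19, and 7 members holding a match. Median GC content was 40.3% in the members, 41.8% in the sites of all 3 factors, and 36.8% in JunB peaks with neither, and its part in these differences was not tested.

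**Figure D3:**
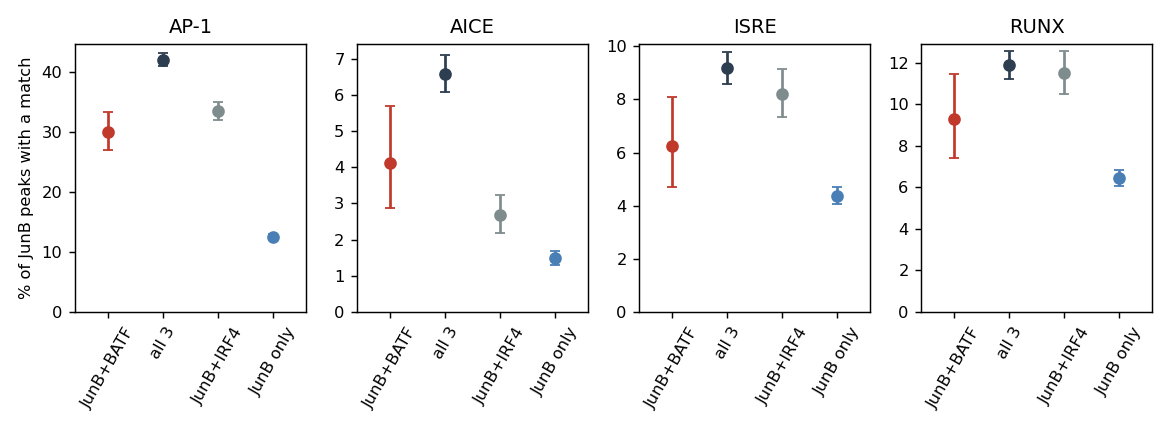
Each panel plots the percentage of JunB peaks with a match to 1 element (y axis) in the members (JunB+BATF, red), the sites of all 3 factors, the sites of JunB and IRF4 without BATF, and the JunB peaks with neither (JunB only), with exact 95% intervals. The members lie below the sites of all 3 factors and above JunB only in each panel, at 30.0%, 42.0%, and 12.4% for AP-1.

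Within the members, an ISRE went with the Junb-deficient IRF4 peak. An ISRE lay in 24 of the 224 members with such a peak (10.7%) and in 29 of the 626 without (4.63%; odds ratio 2.47, 1.34 to 4.50, p = 0.00206, adjusted p = 0.0165 over 8 comparisons by Fisher's exact test). An AP-1 element lay in 24.6% and 32.0% (odds ratio 0.694, 0.480 to 0.992, adjusted exact p = 0.111), and an AICE in 4.02% and 4.15% (odds ratio 0.966, 0.392 to 2.17, adjusted p = 1). The share in the first 50% of the BATF list was 53.1% and 43.8% (adjusted exact p = 0.0762). Promoter position, IRF4 within 10 kb, the first 50% of the JunB list, and a BATF peak touching IRF4 differed by less, each with an adjusted p of 0.743.

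The ISRE difference was not particular to the members. With and without a Junb-deficient IRF4 peak, an ISRE lay in 10.2% and 4.52% of the sites of all 3 factors (odds ratio 2.40, 1.87 to 3.12), in 10.8% and 4.91% of the sites of JunB and IRF4 (2.35, 1.80 to 3.09), and in 10.0% and 4.12% of JunB peaks with neither (2.59, 1.97 to 3.35). The interval of the members holds all 3 of these odds ratios. For the AP-1 element the odds ratio was 0.611 in the sites of all 3 factors, 0.429 in the sites of JunB and IRF4, and 1.65 in JunB peaks with neither. These splits were added after the values of the members were seen.

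By the GENCODE annotation of the same assembly, 67 members (7.88%, 6.16 to 9.90%) lay in promoters, within 1 kb of the transcription start site (TSS) of a protein-coding gene. The others were in exons (29, 3.41%), introns (397, 46.7%), and intergenic sequence (357, 42.0%). Promoters held 5.76% of the sites of all 3 factors (odds ratio 1.40, 1.06 to 1.83, adjusted p = 0.02, exact test), 4.57% of JunB peaks with neither (odds ratio 1.79, 1.36 to 2.32, adjusted p = 8.43e-05), and 6.00% of all JunB peaks, by Fisher's exact test over 4 comparisons. The first difference was lost within 20 strata of the place in the JunB list (odds ratio 1.29, 0.985 to 1.68) and where the BATF peak also had to be clear of IRF4 (1.26, exact p = 0.164). A TSS lay within 100 kb of 733 members (86.2%), against 86.5% of the sites of all 3 factors (odds ratio 0.980, 0.798 to 1.21, adjusted exact p = 0.834) and 69.9% of JunB peaks with neither.

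Ctla4, the inhibitory receptor that competes with CD28 for its ligands, had 4 members among 26 JunB peaks within 100 kb of its TSSs. The rule chose 2.87% over all JunB peaks. Erbb2ip also had 4 members within 100 kb, and Gm10354, Speer4e, Gm17019, and Gm9758 had 6 to 8. Ctla4 was the only gene to be the nearest TSS of 4, among the 667 genes nearest to a member. All 4 stood in the first 16.4% of the JunB list. From upstream to downstream, they stood at places 4222, 2250, 4859, and 1235 in the JunB list, and their BATF peaks at 2177, 850, 1176, and 418 of 13570. The first 3 each lay beside a JunB peak with an IRF4 peak, with centres of IRF4 peaks 485, 417, and 513 bp away, and their BATF peaks touched those IRF4 peaks. The last lay 27.9 kb downstream of the nearest annotated TSS, an internal one, and 50 kb from the 5′ end of the gene, beyond its 3′ end. Its IRF4 neighbour lay 2113 bp away.

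At the Ctla4 promoter, whose JunB peak lay 199 bp upstream of the most upstream Ctla4 TSS, the IRF4 peaks of the 2 genotypes differed in place. In Junb-sufficient cells IRF4 was listed at chr1:60943756-60944368, over a second JunB peak at chr1:60943982-60944132. In Junb-deficient cells it was listed at chr1:60943309-60943913, over the member and the BATF peak at chr1:60943292-60943904. Both IRF4 peaks stood early in their lists, at place 635 of 31093 and place 1094 of 29033. The IRF4 peaks beside the upstream and the intronic member had no overlapping counterpart in Junb-deficient cells, where neither member had an IRF4 peak. With 1 library per genotype, a shift of the centre cannot be told apart from variation between libraries.

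**Figure D4:**
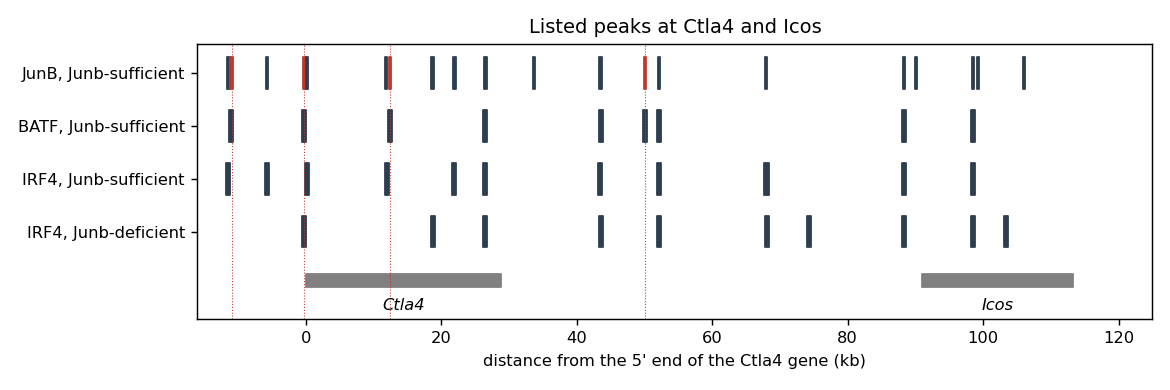
Listed peaks of the 4 libraries are drawn by distance from the 5′ end of the annotated Ctla4 gene in kb (x axis), with peaks widened to at least 0.35 kb for visibility, the 4 members in red with dotted lines, and gene bodies in grey. The Junb-deficient row has a peak at 1 of the 4 members, the one at the 5′ end of Ctla4.

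Of the genes of the effector Treg list, Icos, Ctla4, and Prdm1 had members. The list of 10 genes held 5 members among 124 JunB peaks within 100 kb (4.03%, 1.32 to 9.16%), beside 2.87% over all JunB peaks chosen by the rule. Tigit, Fgl2, Maf, Nt5e, Klrg1, Gzmb, and Il1rl1 had none, at 5 to 17 JunB peaks each. Icos, the costimulatory receptor, shared 3 of the Ctla4 members. Prdm1, which encodes the repressor Blimp-1, had a member 38.7 kb downstream of its TSS, low in the JunB list at place 25114, with an AP-1 element inside an AICE as printed above. The Junb-sufficient IRF4 peak there was centred 427 bp from the member and touched its BATF peak. The Junb-deficient one, at place 2724, was centred 237 bp from the member and touched it. The IRF4 peaks of both genotypes overlapped each other, so IRF4 was listed beside this member in Junb-sufficient cells too.

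Among the Treg identity genes, 7 of 72 JunB peaks were members (9.72%, 4.00 to 19.0%). They lay within 100 kb of a TSS of Il2rb (3) and Il2ra (1), chains of the IL-2 receptor, or of Ikzf2 and Ikzf4, which encode Ikaros-family factors. The other lay within 100 kb of Entpd1, which encodes the ectonucleotidase CD39. Another gene could be nearer, and the Ikzf4 member lay 491 bp from the TSS of Zc3h10. The counts of all the lists are within 100 kb in this way. Foxp3, the lineage factor of Treg cells, had 5 JunB peaks and no member. Genes of cell survival and cell death had 7 members among 94 JunB peaks (7.45%, 3.05 to 14.7%), 1 each within 100 kb of Bcl2, Bcl2l1, Bcl2l11, Fas, Fasl, Cflar, and Pim1. The other lists ran from 1.97% (cytokine receptors and STATs, 3 of 152) to 4.73% (T-cell receptor signalling, 8 of 169), with 1 of 50 at IRF genes, 4 of 105 at AP-1 family genes, 8 of 230 at helper T-cell factors, 4 of 117 at cytokines, 7 of 161 at costimulatory and inhibitory receptors, and 6 of 144 at homing genes. All these intervals were wide, and the lists were not tested. Irf4 itself had 16 JunB peaks within 100 kb and no member, while Batf and Junb had 1 member each.

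Single members showed the range of these features. A member in an intron of Tbc1d16, a regulator of Rab GTPases, lay 27770 bp from a Junb-sufficient IRF4 centre, with a Junb-deficient peak at place 688 of 29033. One 24.4 kb upstream of Xcl1, a chemokine gene, had a Junb-deficient IRF4 peak at place 1156. Its BATF peak also touched a Junb-sufficient IRF4 peak at place 919, centred 488 bp from the member. Both members had no AP-1 element. The highest member with both an ISRE and a Junb-deficient IRF4 peak lay 27.2 kb from the TSS of Mfsd2a, a lipid transporter gene, and was chosen after its values were seen. Its BATF peak touched a Junb-sufficient IRF4 peak centred 409 bp from the member.

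Other members had JunB and BATF peaks without an overlapping IRF4 peak in either genotype. One 29.9 kb upstream of Il10, the anti-inflammatory cytokine gene, held an AP-1 element, with its BATF peak at place 585. One in Bach2, the gene of a repressor of effector differentiation, stood at place 1052 of the JunB list and 853 of the BATF list. One 1.79 kb upstream of Tnfrsf8, which encodes CD30, stood at places 992 and 4238. The nearest Junb-sufficient IRF4 centres lay 3931 bp from the Il10 member, 3693 bp from the Bach2 member, and 1678 bp from the Tnfrsf8 member. The AICE member 60.7 kb upstream of Cd47, the gene of a signal against phagocytosis, lay 12120 bp from the nearest Junb-sufficient and 3902 bp from the nearest Junb-deficient IRF4 centre, and stood at places 1433 and 926. AICE members in N4bp1 and Nr1h3, the latter the gene of a nuclear receptor for oxysterols, lay 1253 and 4340 bp from a Junb-sufficient one. At Nfil3, the gene of a basic leucine zipper repressor, the AICE member lay 394 bp from a Junb-sufficient IRF4 centre and 380 bp from the centre of its BATF peak.

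The members highest in the JunB list included repeated sequence. The member at place 5 and another at place 123 lay at the start of chromosome 9, where 14 JunB peaks were listed below position 3100000. Those at places 13 and 15 shared 1 BATF peak on chromosome 17 in ribosomal RNA sequence, 361 kb from the nearest protein-coding TSS, and the one at place 35, in an intron of the kinase gene Jak2, was made of copies of a short unit. Below them stood the Jarid2 member at place 282, 408 kb from the TSS of that gene, which held an AP-1 element and lay 403 bp from an IRF4 peak at place 24, and a member in an intron of Nek7, a kinase gene, at place 329. The member at place 523 lay in intergenic sequence 134 kb from its nearest TSS, that of Dusp4. The promoter of Eef1a1, which encodes a translation elongation factor, had a member at place 709 with no IRF4 centre within 10 kb. Without the first 100 places the members numbered 845, and the odds ratios were 7.61 for the Junb-deficient IRF4 peak, 0.596 for AP-1, and 0.620 for AICE.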

How the data were processed

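The deposited lists give, for each of 4 libraries, peak positions and a score column holding only the value 1, so that a peak was either listed or not. Per the file headers, the authors called peaks with HOMER (4.8 in the submitters' processing notes) in each library by itself on mm9, with no control library, at a false discovery rate of 0.001 and 4-fold over the surrounding 10 kb, with at most 1 tag per bp. JunB peaks were narrower than those of the other lists. From the positions, overlap of at least 1 bp, distances between centres, annotation (GENCODE, TSSs of protein-coding genes), and motif matches were computed. All 103355 peaks lay inside the reference chromosomes.

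Shares carry exact Clopper-Pearson 95% intervals. Fisher's exact test gave conditional odds ratios, with Mantel-Haenszel estimates over 20 strata of place, at a threshold of 0.05. The members, gene lists, and tests were chosen with earlier results of these data known. Named members were the 10 highest in the JunB list, the 5 highest with a Junb-deficient IRF4 peak, in a promoter, with an AICE, or with no IRF4 centre within 10 kb, all at effector Treg genes, and the highest of each other list, of which those described are a selection and 1 is not reported here. Alternatives changed the overlap, the lists, the strata, the windows, and the annotation. The share of repeat bases was not computed, and the sequence of the member on chromosome 18 is not shown. Python 3.11.15, NumPy 2.4.6, SciPy 1.17.1, and matplotlib 3.10.9 were used, and the code was tested on simulated data.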

Additional observations from a re-analysis of the deposited data

How the results depend on the processing

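The number of members depended on the lists. It was 381 with the first 50% of every list, 1640 when only the Junb-sufficient IRF4 list was cut to 50%, 528 with no Junb-sufficient IRF4 centre within 2 kb, and 3777 with the BATF and IRF4 antibodies exchanged as in the antibody field, against 850. The promoter share no longer differed past the threshold from that of the sites of all 3 factors with centres within 100 bp counted as shared (odds ratio 1.13), with only the first 50% of every list (1.10) or of the IRF4 list (1.01), with the BATF peak clear of IRF4 (1.26), with no Junb-sufficient IRF4 centre within 2 kb (1.20), and within 20 strata of place in the JunB list (1.29) or, chosen after seeing the data, in the BATF list (1.25). The cause was not tested. The exchange of antibodies also moved the odds ratio for IRF4 within 10 kb from 4.45 to 1.26 and that for the Junb-deficient IRF4 peak from 7.65 to 27.0, and cutting the Junb-sufficient IRF4 list to 50% moved the former to 1.65. The exchange moved the odds ratio against the sites of all 3 factors from 1.40 to 2.28 for promoters, from 0.610 to 0.390 for AICEs, and from 0.591 to 0.692 for AP-1. With these shifts of odds ratios counted in, 67 of 78 alternatives kept the direction and the side of the threshold, or for the number of members stayed within 1.5 times. Leaving out the first 100 places of the JunB list, the strata of the BATF list and of distance, and the alternatives for the ISRE were also chosen after seeing the data.

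Each condition had 1 library here, so leaving out a library gave no value. The study reports that its ChIP-seq experiments were repeated and that ChIP-PCR was also done, and those results were not used here. No paired analysis was possible because the groups share only 1 replicate number. The lists hold no tag counts, so IRF4 signal under the caller's threshold cannot be told apart from none.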
